A study of Mus musculus with 6 samples.

Results

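Respiratory complex I passes electrons from NADH to ubiquinone in the inner mitochondrial membrane, and its nuclear-encoded genes were read in whole brain of 7-day-old mice after an acute ethanol exposure. The genes are those whose platform annotation symbol begins with Nduf followed by the letters of a subunit series (a, b, c, s, v or ab) or of the assembly factors (af) and a number. On probesets assigned to 1 gene there were 43 such genes, 36 subunits and 7 assembly factors, among 19938 genes named on the array. They lay on 48 probesets, and for the 5 genes with more than 1 the brightest probeset, averaged over the 6 arrays, was used. All 43 genes were bright enough to be tested. Ndufb1 and Ndufaf8 were not analysed here, and Ndufb4 lay only on probesets shared with its copy Ndufb4b.

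All animals were C57BL/6J males, an inbred laboratory strain, killed on postnatal day 7. The ethanol pups had received 2 subcutaneous doses of 2.5 g/kg in saline, 2 h apart, and brains were taken 4 h after the first dose; the control pups had received saline alone. Each array held RNA pooled from 3 males of different litters, which gave 2 ethanol arrays (numbers 2 and 4) and 4 saline arrays (numbers 1, 3, 5 and 6) from 18 mice. Litters were split between the treatments, but no label ties one array to another.

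Complex I has an L shape. Its peripheral arm, in the matrix, holds the N module, where NADH is oxidised, and the Q module, where ubiquinone is reduced; its membrane arm pumps protons. A core of subunits conserved from bacteria carries the catalysis, the remaining accessory subunits stabilise it, and the innermost membrane subunits are encoded by mitochondrial DNA. Assembly factors help to build the complex and are not part of the finished enzyme. Neurons depend heavily on oxidative phosphorylation, and loss of single subunits or assembly factors of complex I is a known cause of Leigh syndrome, an early-onset brain disease, in humans.

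Values are the authors' deposited intensities, taken to be on a log2 scale, with the mean ± SD over arrays; changes are log2 differences, ethanol minus saline, with the standard error (SE) of a limma fit across 14953 tested genes. Levels of different genes are not compared, because probesets differ in brightness for reasons other than transcript abundance. In whole tissue, fewer cells of a type and less RNA per cell cannot be told apart. Saline array 3 stood apart: its median over tested genes was 8.29, against 8.34 to 8.38 on the other 5 arrays, and 36.9% of tested genes had their lowest value on it. Changes that moved by over 1.5 times without this array are given without it too. Neuron markers had mean levels of 11.6 to 11.8 over the 6 arrays and astrocyte markers had 10.5 on each, so both were present in the tissue labelled brain.

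In the brains of ethanol-treated pups no complex I gene differed from saline after adjustment over all tested genes. Of the 36 subunits 0 passed a limma adjusted p of 0.05, and of the 7 assembly factors 0 passed, where 12 of 14953 tested genes passed (0.0803%), 0.0602% higher and 0.0201% lower with ethanol. At an unadjusted p under 0.05 there were 0 subunits, and 2 assembly factors, Ndufaf4 and Ndufaf2, both lower with ethanol, where 12.3% of tested genes reached that level, 3.85% on the higher side and 8.44% on the lower. The median log2 change was -0.01 over the subunits and -0.09 over the assembly factors, beside -0.02 over all tested genes. With the dimmest 50% of genes left out, Ndufaf4 passed (limma adjusted p = 0.0448).

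**Figure D1:**
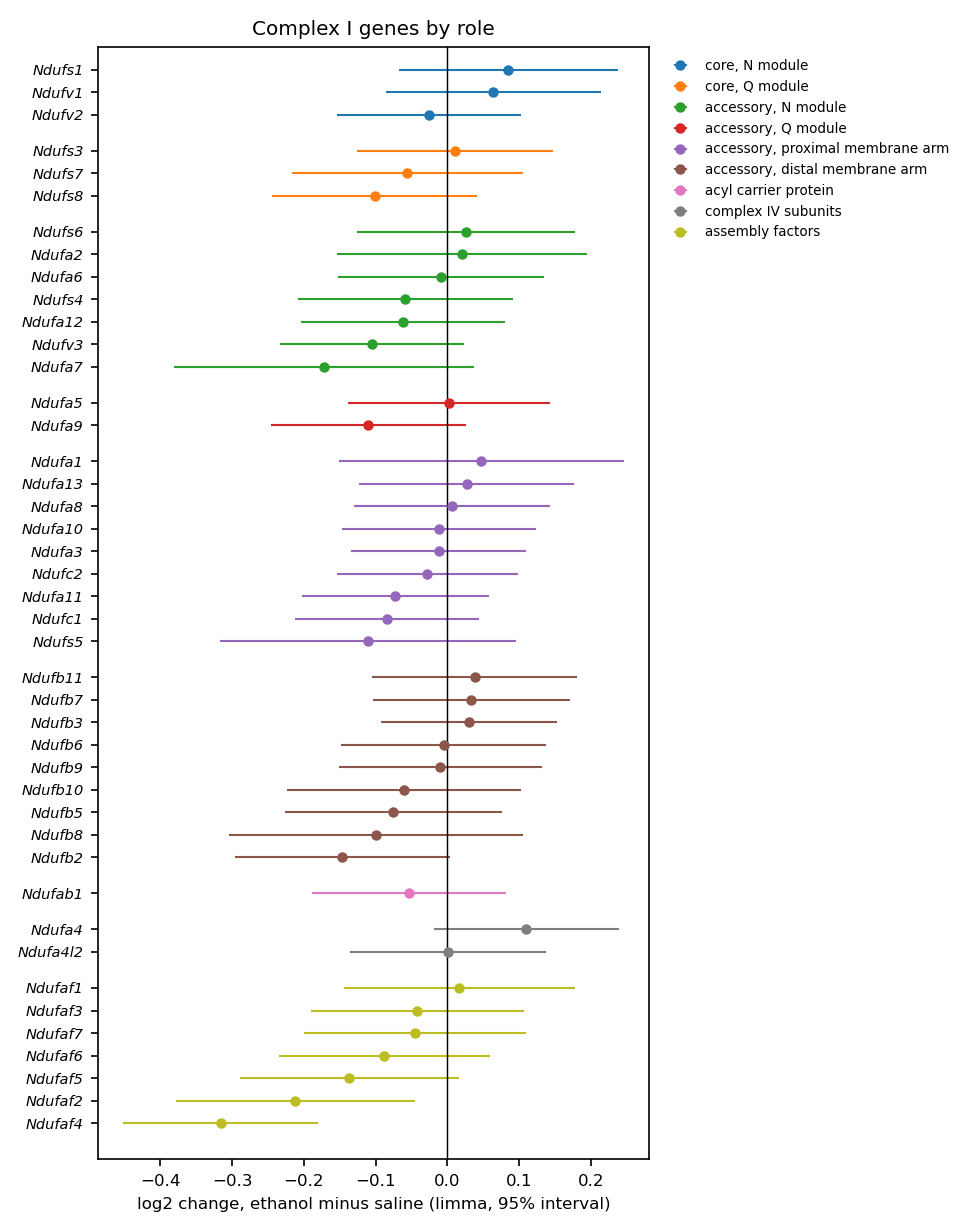
Log2 change, ethanol minus saline, of the 43 genes, grouped by role and coloured by group; points are limma estimates from 2 ethanol and 4 saline arrays and bars are 95% intervals. All 36 subunit intervals reach across 0, and the intervals of Ndufaf4 and Ndufaf2 lie below it.

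The core subunits sat close to their saline levels. Ndufs1, the largest iron-sulfur subunit of the N module, read 10.02, 9.83, 10.02 and 9.98 on saline arrays 1, 3, 5 and 6, and 10.09 and 10.00 on ethanol arrays 2 and 4. Its change was 0.09 ± 0.07 (SE), and the groups overlapped. Ndufv1, which binds NADH and the flavin, had saline values of 10.52, 10.30, 10.42 and 10.39 and ethanol values of 10.44 and 10.50, a change of 0.06 ± 0.07. Ndufv2, an iron-sulfur subunit beside it, had a change of -0.03 ± 0.06. The low saline value of both Ndufs1 and Ndufv1 was that of array 3, and without it their changes were 0.041 and 0.029.

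In the Q module, Ndufs8, which carries a pair of iron-sulfur clusters, read 10.86, 10.79, 10.81 and 10.84 with saline and 10.81 and 10.64 with ethanol. Its change of -0.10 ± 0.07 came mostly from ethanol array 4; without ethanol array 2 it was -0.19, with a limma adjusted p of 0.423. Ndufs7, which holds the last iron-sulfur cluster before ubiquinone, had one ethanol array below and one above all saline arrays, 11.72 and 11.95 against 11.83 to 11.95, and a change of -0.06 ± 0.07. Ndufs3, a core subunit on which the Q module is built, had 0.01 ± 0.06, and a second probeset of it gave 0.04. None of the 6 core subunits measured had groups that did not overlap.

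Across all 43 genes, ethanol and saline arrays did not overlap for 10 (23.3%), 2 higher and 8 lower with ethanol, where this held for 22.6% of tested genes, 7.68% higher and 14.9% lower. Of these 10 genes 7 were subunits. That is 19.4% of the subunits, a share close to that of all tested genes.

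Of the 9 accessory subunits of the peripheral arm, 6 had an estimate below 0, where this held for 58.6% of all tested genes. Ndufv3, an accessory subunit of the N module, read 9.24, 9.30, 9.34 and 9.29 with saline and 9.19 and 9.19 with ethanol, so that both ethanol arrays lay below all saline arrays (change -0.11 ± 0.06, limma adjusted p = 0.504). Ndufa9, which sits where the arms join, had saline values of 10.88, 10.81, 10.84 and 10.93 and ethanol values of 10.80 and 10.71, again without overlap, and a change of -0.11 ± 0.06 (limma adjusted p = 0.512). The gap between the groups was 0.01 for Ndufa9.

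Ndufa7, a further accessory subunit of the N module, had the lowest estimate among subunits, -0.17 ± 0.10 (limma adjusted p = 0.505). Its saline arrays spread from 8.82 on array 3 to 9.15 on array 6, and the ethanol arrays at 8.93 and 8.74 overlapped them. Without saline array 3 its change was -0.23, with an unadjusted p of 0.0200 and a limma adjusted p of 0.259. Ndufs4, which is needed for a stable N module and whose loss in mice is a common model of Leigh syndrome, had a change of -0.06 ± 0.07. Ndufs6 and Ndufa2 had 0.03 ± 0.07 and 0.02 ± 0.08, Ndufa6 -0.01 ± 0.07, Ndufa12 -0.06 ± 0.07 and Ndufa5, of the Q module, 0.00 ± 0.06.

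In the membrane arm the median change over 18 accessory subunits was -0.01, with 6 above and 12 below 0. Ndufb2, of the distal part of the arm, had the smallest p among all subunits: saline values were 7.35, 7.28, 7.44 and 7.28, ethanol values 7.26 and 7.12, and the change was -0.15 ± 0.07 (unadjusted p = 0.0551, limma adjusted p = 0.417). Its groups were separated by 0.02. Ndufc1 and Ndufa11, of the proximal part, also had both ethanol arrays below all saline arrays, with changes of -0.08 ± 0.06 and -0.07 ± 0.06. For both genes a second, dimmer probeset overlapped between the groups and gave -0.04 and -0.01.

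On the higher side Ndufb3 read 7.68, 7.70, 7.67 and 7.68 with saline and 7.71 and 7.71 with ethanol, a change of 0.03 ± 0.06 and the only membrane-arm subunit with both ethanol arrays above all saline arrays. Ndufb11, encoded on the X chromosome, had 0.04 ± 0.07 and Ndufb7 had 0.03 ± 0.06. Ndufa1, also X-linked, went from a saline low of 7.69 on array 3 to a high of 8.05 on array 6 and had a change of 0.05 ± 0.09. Ndufc2 had -0.03 ± 0.06, with all 6 arrays between 12.57 and 12.64. Ndufab1, the mitochondrial acyl carrier protein found in both arms, had -0.05 ± 0.06. The probesets shared by Ndufb4 and Ndufb4b, which stand outside the 43 genes, gave 0.02 and 0.02.

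The 95% intervals of the subunits show which changes remain possible. For 32 of the 36 subunits the 95% interval lay within 0.25 on either side of 0. These limits stand for 15.9% lower and 18.9% higher than saline. The same held for 67.2% of tested genes. Whether an interval stays inside these limits depends on where it lies as well as on its width. The 4 exceptions were Ndufa7, Ndufb2, Ndufb8 and Ndufs5, whose intervals began at -0.38, -0.30, -0.30 and -0.32. No subunit interval reached above 0.25. The median SD among saline arrays was 0.07 for subunits and 0.07 for all tested genes.

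A pair of members carry the Nduf name but belong to complex IV, cytochrome c oxidase, according to later work. Ndufa4 had the highest estimate of all 43 genes: saline arrays read 10.38, 10.31, 10.31 and 10.31, ethanol arrays 10.40 and 10.48, and the change was 0.11 ± 0.06 (limma adjusted p = 0.485). Both ethanol arrays lay above all saline arrays, the nearest being saline array 1. Ndufa4l2, a hypoxia-induced paralogue, had values of 5.54 to 5.65 on all arrays, below the 95th percentile of olfactory and vomeronasal receptor genes (6.21), which serve as a guide to background. Its change was 0.00 ± 0.06. Without both genes the subunit median was -0.02.

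The 3 lowest estimates among the assembly factors were those of Ndufaf4, Ndufaf2 and Ndufaf5. Ndufaf4, which works with Ndufaf3 on the early Q module in human cells, read 8.71, 8.63, 8.70 and 8.58 on saline arrays 1, 3, 5 and 6, and 8.36 and 8.32 on ethanol arrays 2 and 4. Both ethanol arrays lay below all saline arrays with a gap of 0.22, more than 3 times the SD of 0.06 among the saline arrays. The mean was 8.66 ± 0.06 (SD, n = 4) with saline and 8.34 ± 0.03 (SD, n = 2) with ethanol. The change was -0.32 ± 0.06 (SE), or -19.7% with a 95% interval from -26.9% to -11.7%, and it missed the threshold (limma adjusted p = 0.0761). By unadjusted p, 0.000271, Ndufaf4 ranked 52 among the 14953 tested genes.

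Ndufaf2, a paralogue of the subunit Ndufa12 that occupies its place until the N module is attached, read 8.54, 8.34, 8.39 and 8.60 with saline and 8.26 and 8.26 with ethanol. The groups did not overlap, the gap was 0.09, and the change was -0.21 ± 0.08 (unadjusted p = 0.0170, limma adjusted p = 0.291). Ndufa12 itself had a change of -0.06 ± 0.07 and overlapping groups. Ndufaf5, which hydroxylates an arginine of Ndufs7 in human cells, read 7.96, 7.77, 7.76 and 7.87 with saline and 7.69 and 7.72 with ethanol. It too separated the groups, by 0.03, with a change of -0.14 ± 0.07 (limma adjusted p = 0.458).

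**Figure D2:**
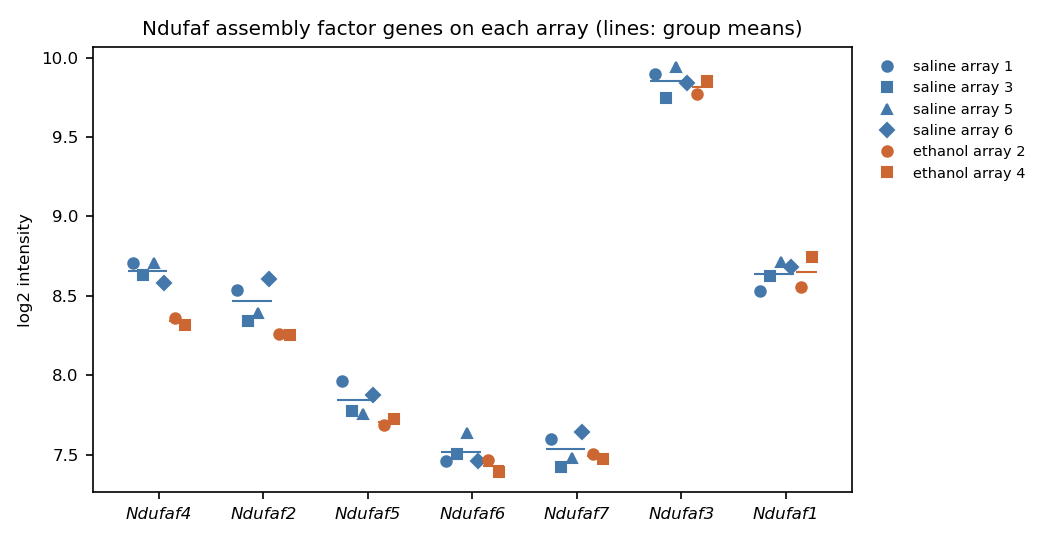
Log2 intensity of the 7 Ndufaf genes on each array, with saline in blue and ethanol in orange; marker shape gives the array and short lines the group means. For Ndufaf4, Ndufaf2 and Ndufaf5 both ethanol arrays lie below all 4 saline arrays, while the other 4 genes overlap.

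The remaining assembly factors overlapped between the groups. Ndufaf6, needed early for the membrane arm, had a change of -0.09 ± 0.07, with saline values of 7.46, 7.51, 7.63 and 7.46 and ethanol values of 7.47 and 7.39. Ndufaf3, the partner of Ndufaf4, read 9.90, 9.75, 9.94 and 9.84 with saline and 9.77 and 9.86 with ethanol, a change of -0.04 ± 0.07. Ndufaf7, a methyltransferase that acts on a Q-module subunit in human cells, had -0.05 ± 0.07. Ndufaf1, of the complex that builds the central membrane arm, was the only factor with a positive estimate, 0.02 ± 0.07, from ethanol values of 8.56 and 8.75 and saline values of 8.53 to 8.71. In all, 6 of 7 factors had an estimate below 0, where 58.6% of tested genes did, and 3 of 7 had both ethanol arrays below all saline arrays, where 14.9% of tested genes did.

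The promoters of the 3 separated assembly factors are shown because in these genes both ethanol arrays lay below all saline arrays; none of the 3 passed in limma. Each is the 250 bases before the gene's start, 5′ to 3′ on the gene's strand, from RefSeq on GRCm38.p6, with any match to a searched motif in capitals. The intervals are chr4:24897833-24898082 on the plus strand for Ndufaf4, chr13:108158626-108158875 on the minus strand for Ndufaf2 and chr2:140170396-140170645 on the plus strand for Ndufaf5.
Ndufaf4: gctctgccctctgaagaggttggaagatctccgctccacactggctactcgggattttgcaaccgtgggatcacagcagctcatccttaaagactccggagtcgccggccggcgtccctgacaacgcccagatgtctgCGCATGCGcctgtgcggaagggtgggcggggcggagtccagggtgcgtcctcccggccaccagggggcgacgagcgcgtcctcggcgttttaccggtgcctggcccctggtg
Ndufaf2: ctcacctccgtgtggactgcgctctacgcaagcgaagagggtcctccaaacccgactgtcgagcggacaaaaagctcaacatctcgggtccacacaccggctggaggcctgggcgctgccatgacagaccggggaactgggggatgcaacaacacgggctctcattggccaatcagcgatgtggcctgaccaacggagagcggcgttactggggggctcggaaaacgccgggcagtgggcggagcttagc
Ndufaf5: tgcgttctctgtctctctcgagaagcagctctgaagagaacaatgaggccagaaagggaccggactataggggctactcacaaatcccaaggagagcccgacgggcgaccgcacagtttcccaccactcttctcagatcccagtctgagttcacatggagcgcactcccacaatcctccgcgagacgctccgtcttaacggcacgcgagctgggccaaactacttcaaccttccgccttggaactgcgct

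The 4 motifs of factors known for mitochondrial or growth genes were searched on both strands, from 250 bases before to 50 after the start. The NRF1 core motif, GCATGCG, stood 111 bases before the start of Ndufaf4, overlapping a match on the other strand at 112, so that both are in the capitals. Outside the printed stretches it stood 3 bases after the start of Ndufaf4 and, again on both strands, 18 and 19 bases after that of Ndufaf5. Ndufaf2 held none of the 4 motifs. Among 38 of the 43 genes with a promoter entry, 5 held the NRF1 core (13.2%), where 4.01% of 27025 genes did, whether tested here or not. The NRF1 and YY1 motifs had been shortened to their cores after matches were seen, so their shares are description alone. The YY1 core AAGATGG was held by 7 (18.4%, against 7.28% of genes) and no assembly factor, the ETS motif CCGGAAG by 5 (13.2%, against 9.93%) and the E-box CACGTG by 2 (5.26%, against 8.09%). The genes with the NRF1 core were Ndufaf4, Ndufaf5, Ndufa6, Ndufa8 and Ndufa11, whose changes ran from -0.32 to 0.01. NRF1 binds such sites in many nuclear genes of mitochondrial proteins; a match describes the letters and is not evidence of binding here.

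Subunits and assembly factors were set side by side within each array. The mean over the 36 subunits was 9.78, 9.70, 9.77 and 9.77 on saline arrays 1, 3, 5 and 6. It was 9.74 and 9.71 on ethanol arrays 2 and 4. The ethanol arrays lay inside the saline range only because of saline array 3, and below the other saline arrays. The mean over the 7 assembly factors was 8.38, 8.29, 8.37 and 8.38 with saline and 8.23 and 8.25 with ethanol, with both ethanol arrays below all saline arrays. The subunit mean minus the factor mean was 1.40, 1.40, 1.40 and 1.39 with saline and 1.51 and 1.46 with ethanol. Only the shift of this difference between arrays can be read, not its size, which depends on the brightness of the probesets.

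That difference averaged 1.40 ± 0.01 (SD, n = 4) with saline and 1.49 ± 0.04 (SD, n = 2) with ethanol, a shift of 0.09. It is unaffected by any scaling that moves a whole array up or down, and saline array 3, low in both means, lay with the other saline arrays in it. Without Ndufaf4 the groups still did not overlap in this difference, at 1.42 to 1.46 with saline against 1.54 and 1.47 with ethanol, a shift of 0.06. The factor mean itself did overlap without Ndufaf4, at 8.241 on ethanol array 4 and 8.236 on saline array 3. The difference between the median changes of subunits and factors was 0.08, and 0.05 without Ndufaf4, without saline array 3 or without saline array 5. No test was made of these list summaries.

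**Figure D3:**
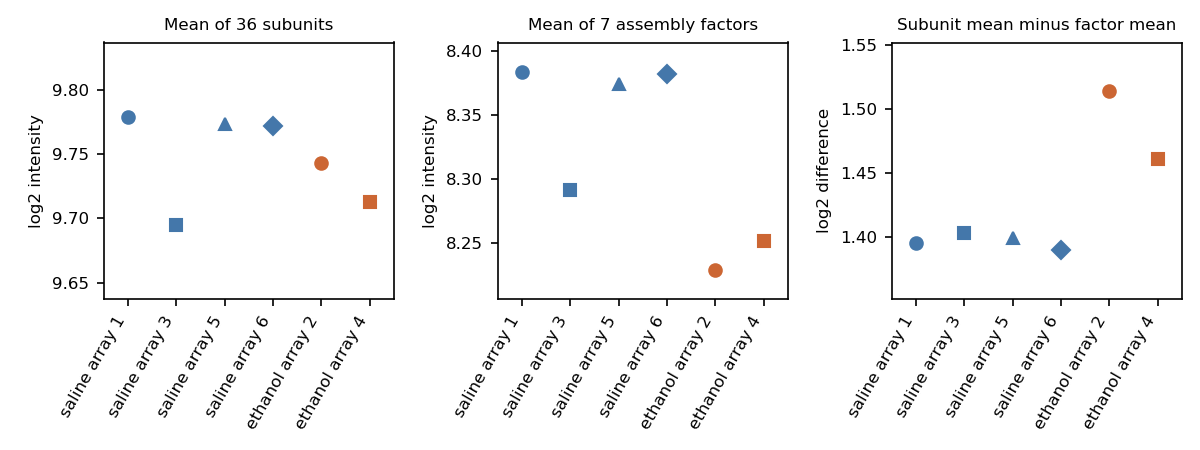
Mean log2 intensity of 36 subunits, mean of 7 assembly factors and the difference of the means on each array, with saline in blue and ethanol in orange; the 3 vertical axes span the same log2 width. Ethanol arrays lie below the saline range for factors (8.23 and 8.25) and above it for the difference (1.46 and 1.51). For subunits (9.71 and 9.74) they lie within the saline range only because of saline array 3, and below the other saline arrays.

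Among subunits, array 3 and the ethanol arrays shared the low readings. Of 36 subunits 11 had their lowest value on saline array 3 and 18 on an ethanol array, where 36.9% and 42.4% of tested genes did. Only 5 had their highest value on an ethanol array, where 29.7% of tested genes did, while 12 peaked on saline array 5, 11 on array 1, 7 on array 6 and 1 on array 3. Without saline array 3 the subunit median was -0.04 and 3 subunits (Ndufa7, Ndufa9 and Ndufb2) had an unadjusted p under 0.05, all lower with ethanol. The median and the share at that level over all tested genes are not given here for that fit. These values are therefore not set against the whole array. The estimates of Ndufa1, Ndufa2, Ndufa4l2, Ndufa5, Ndufa8 and Ndufs3 were above 0 over all arrays and below 0 without array 3, at -0.031, -0.030, -0.016, -0.0035, -0.016 and -0.014. Without it Ndufb11, Ndufs6 and Ndufb7 had 0.0029, 0.0054 and 0.019, Ndufs7 -0.037, Ndufs4 -0.039, Ndufc2 -0.043, Ndufa6 -0.0027 and Ndufb8 -0.17. Among the factors Ndufaf3 and Ndufaf7 then had -0.078 and -0.082. None of these genes passed in limma or had an unadjusted p under 0.05 in that fit. Without ethanol array 2, Ndufb2 and Ndufs8 were again lower, at -0.21 and -0.19. In none of these fits did a subunit pass after adjustment in limma.

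Assembly factors of complex I that carry other names were read on the same arrays. Of 15 tested, 10 (66.7%) had an estimate below 0, where 58.6% of all tested genes did, and the median was -0.02. None passed in limma, and 2 had an unadjusted p under 0.05, both lower, where 8.44% of all tested genes did. Nubpl, which delivers iron-sulfur clusters to complex I, read 6.66, 6.45, 6.56 and 6.54 with saline and 6.11 and 6.33 with ethanol. Its change was -0.34 ± 0.08 (limma adjusted p = 0.115), and the value on ethanol array 2 lay in the background range. Timmdc1, a membrane-bound factor for the proximal membrane arm, read 9.76, 9.74, 9.74 and 9.78 with saline and 9.54 and 9.68 with ethanol, a change of -0.14 ± 0.06 (limma adjusted p = 0.368). Complex I subunits encoded by mitochondrial DNA were not analysed here.

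The other respiratory complexes gave the frame for these values. None of their genes passed in limma, and the median change was -0.06 over 8 genes of complex II, 0.00 over 15 of complex III, -0.02 over 24 of complex IV and -0.01 over 18 of ATP synthase. At an unadjusted p under 0.05 there were 0, 1, 1 and 0 genes in these lists, where 12.3% of all tested genes reached that level. The genes with the smallest p in complexes II to IV were assembly factors. Other assembly factors in these lists lay on both sides of 0, such as Cox11 at -0.10 and Cox19 at 0.07. The lowest value of Cox19, 8.37, was that of saline array 3. Lyrm7, a chaperone of the Rieske iron-sulfur protein of complex III, had a change of -0.22 ± 0.07 (limma adjusted p = 0.247) and Cox17, a copper chaperone of complex IV, -0.25 ± 0.07 (0.205). Cox10, which makes the heme of complex IV, had -0.11 ± 0.06, and Sdhaf2 and Sdhaf4, which mature the catalytic subunit of complex II, had -0.13 ± 0.07 and -0.11 ± 0.06. All values of Sdhaf4 lay in the background range. Uqcc1, a complex III assembly factor, had 0.15 ± 0.08, and the ATP synthase subunit genes Atp5k and Atp5a1 had 0.10 ± 0.07 and 0.07 ± 0.06.

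**Figure D4:**
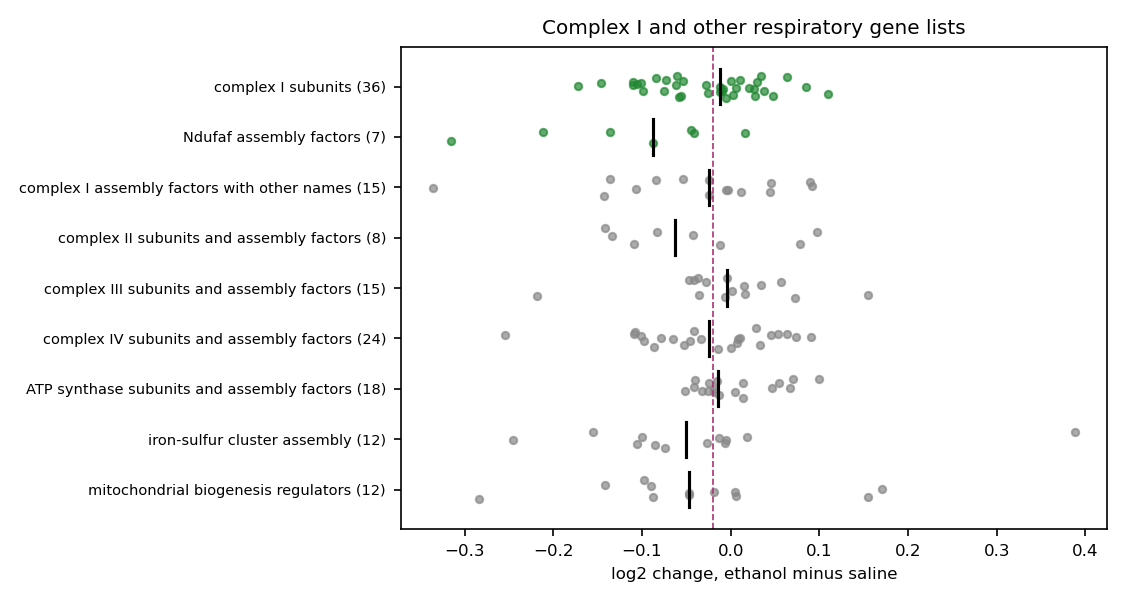
Log2 change, ethanol minus saline, of each tested gene in complex I (green) and in other respiratory lists (grey), with the number of genes in brackets; black bars are list medians and the dashed line is the median of all tested genes, -0.02. Complex I subunits lie between -0.17 and 0.11, and the Ndufaf factors extend to -0.32.

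Iron-sulfur cluster genes supply the clusters on which complex I depends. Of 12 tested, none passed in limma and 10 had an estimate below 0 (83.3%, against 58.6% of all tested genes; median -0.05). Nfs1, the cysteine desulfurase that supplies the sulfur, read 8.12, 7.81, 7.85 and 8.09 with saline and 8.39 and 8.32 with ethanol, a change of 0.39 ± 0.09 (limma adjusted p = 0.120). Fdx1, a mitochondrial ferredoxin, had -0.25 ± 0.07 (limma adjusted p = 0.222), and its ethanol values of 6.11 and 6.10 lay in the background range. Of 12 regulators of mitochondrial biogenesis, none passed in limma. Twnk, the mitochondrial DNA helicase, had 0.15 ± 0.06, and all its values lay in the background range. Pprc1, a coactivator of the PGC-1 family, had -0.28 ± 0.13, with a saline spread from 6.85 to 7.48.

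Markers of other cells were set beside these values. Of 8 neuron markers 5 had an estimate above 0 (median 0.02), and 6 astrocyte markers had a median of 0.00. Snap25 was the lowest neuron marker, at -0.19 (limma adjusted p = 0.257), with both ethanol arrays below all saline arrays. Oligodendrocyte lineage markers had a median of -0.16 over 5, with 3 below 0 and 2 above. Their mean levels were 9.25 to 9.36 on saline and 9.11 and 9.24 on ethanol arrays. The lowest was Olig2 at -0.32 (limma adjusted p = 0.0827), while Pdgfra and Mbp had 0.01 and 0.05. All 3 tested pituitary markers lay lower with ethanol, with mean levels of 7.02 to 7.37 on saline arrays and 6.80 and 5.78 on ethanol arrays. Microglia, endothelial and choroid plexus markers had medians of -0.03, -0.04 and 0.04, and erythroid and skeletal muscle markers -0.20 over 2 and -0.08 over 4. None of these markers passed in limma. Their part in the values of the assembly factors was not tested.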

How the data were processed

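Each array was hybridised with labelled cDNA from pooled whole-brain RNA. The authors deposited processed values of 35556 probesets on 6 arrays, for which the submitters' processing notes name Partek 6.6, and these were taken here to be log2 intensities from their range (4.10 to 14.9), since no source used here states the log base. How background correction, normalization and summarisation were done is not given in the sources used here, and no further normalization was applied.

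The platform annotation paired 21789 probesets with 1 gene symbol, and 21698 of these matched a current gene record; 1621 with several symbols named no gene. Each gene was represented by its brightest probeset over the 6 arrays, and the dimmest 25% of genes (4985, up to 5.55) were left out, which left 14953. Genes were fitted with limma 3.58.1 (lmFit, eBayes) in R 4.3.3 on all 6 arrays with treatment as the only term, two-sided, with Benjamini-Hochberg adjustment over all tested genes and a threshold of 0.05. The fit was tested on simulated data. Replicates are pools of separate animals, and their number limits the precision.

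The members, gene lists and motifs were chosen with earlier results of these data known, and the NRF1 and YY1 motifs were shortened to their cores after matches to longer forms had been seen. Genes named with values were the core subunits, the assembly factors, 4 other subunits of smallest p in each direction, members at the ends of the level range or with a saline array set apart, and 2 genes of smallest p from each neighbouring list; Ndufa1, Ndufc1, Ndufa11, Ndufa12 and other subunits given with a value alone were added after their values were seen. Alternatives were other filters on dim genes, the mean of probesets, centred or quantile-normalized arrays, a trended prior, array weights and leaving out each array.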

Additional observations from a re-analysis of the deposited data

Results flagged for a closer look

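A saline array was set apart from the other saline arrays by more than Dixon's 95% limit in 1 of the 43 genes, Ndufa4, where saline array 1 read 10.38 and the other 3 read 10.31. This limit flags about 1 in 20 groups of 4 by chance. The mean level of the subunits was set apart on saline array 3, at 9.70 against 9.77 to 9.78, and so was the mean level of the assembly factors on the same array, at 8.29 against 8.37 to 8.38.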

How the results depend on the processing

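No subunit passed in limma under any alternative. Ndufaf4 passed only with the dimmest 50% of genes left out, which made 1 assembly factor; fewer genes were then tested. Its log2 change ran from -0.34 to -0.29 over all alternatives, with adjusted p from 0.0448 to 0.456. The number of tested genes that passed was 12, and became 56 with array weights, 43 with a trended prior, 23 after quantile normalization and 52 with the dimmest 50% left out; leaving out 1 array gave 4 to 16, the lowest without ethanol array 4. Subunits at an unadjusted p under 0.05 numbered 2 with array weights and 0 to 3 when 1 array was left out. Assembly factors at that level numbered 1 to 3 when 1 array was left out. Genes whose groups did not overlap numbered 10 to 21 when 1 array was left out, where fewer arrays make separation easier. For these counts of complex I genes the shares over all tested genes are not given here. The difference between the subunit and factor medians was 0.056 with array weights, 0.055 without Ndufaf4 (a setting chosen after seeing the data) and 0.050 to 0.088 when 1 array was left out. Of 37 named genes, 6 with estimates near 0 changed sign somewhere: with array weights Ndufa4l2 gave -0.015 and Ndufs3 -0.0016, and leaving out 1 array gave -0.052 to 0.053 for Ndufa4l2, -0.078 to 0.11 for Ndufaf1, -0.085 to 0.0015 for Ndufaf3, -0.014 to 0.033 for Ndufs3, -0.17 to 0.059 for Ndufs7 and -0.060 to 0.0091 for Ndufv2. The cause was not tested. No paired analysis was possible because the groups share no replicate number.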
